A study of Homo sapiens with 7 samples.

Results

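A set of 39 genes was measured in HK-2, a cell line immortalised from human proximal tubule epithelium of the kidney. They are genes of the non-collagenous extracellular matrix: adhesive glycoproteins, proteoglycans, fibulins and fibrillins, matrix cross-linking enzymes, laminins and nidogens. The members were taken by gene symbol from the deposited count table, in which each of the 39 had 1 row among 33694. The list was drawn up by name with the fold changes between the groups already known, so the changes of these genes are given as a description and support nothing by themselves. An adjusted p stated for a member shows where it stands in the fit over all genes.

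Cells labelled WT had been transfected for 96 h with 50 nM scrambled siRNA (4 libraries, replicates 1 to 4), and cells labelled GLUT2-KD with 50 nM siRNA against GLUT2, the product of SLC2A2 and a transporter that lets glucose cross the membrane down its gradient (3 libraries, replicates 2 to 4). All 7 libraries came from the same cell line, and the labels call them biological replicates without saying whether the cultures were independent, so a p-value measures the spread between these libraries. Transfection used RNAiMAX, and what sequences the siRNAs had is not given in the sources used here. The comparison asks which transcripts differ between cells given the GLUT2 siRNA and cells given the scrambled siRNA. Levels are CPM, 3' mRNA counts scaled to the TMM library size. A fold change is the log2 ratio of siGLUT2 to scrambled with its SE from edgeR's quasi-likelihood test, with p adjusted by Benjamini-Hochberg over the 12404 genes tested and a threshold of 0.05.

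The extracellular matrix is the secreted scaffold that epithelial cells rest on and remodel. Laminins are heterotrimers of an alpha, a beta and a gamma chain that build the basement membrane together with nidogens, perlecan and agrin, while fibronectin, fibrillins and thrombospondins belong to the interstitial or provisional matrix. Proteoglycans carry glycosaminoglycan chains that bind growth factors and cell-surface receptors. In the kidney the tubular basement membrane is laid down by tubule cells, and matrix gain around tubules is a hallmark of renal fibrosis.

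Total counts ran from 5654957 to 8455963 per library. The targeted gene SLC2A2 had 13, 13, 7 and 17 counts in scrambled replicates 1 to 4, and all 3 siGLUT2 libraries had 0. Its adjusted p was 0.0085 in the fit over all genes and 0.0577 with a replicate block. Because SLC2A2 passed the low-count filter on the scrambled libraries alone, the adjusted p is no support beyond these low counts. The siGLUT2 libraries held 13433 to 13891 genes with at least 1 count against 14844 to 15036 in the scrambled libraries, and mitochondrially encoded genes took 7.04% to 7.56% against 4.91% to 5.53% of counts. Of 18 proximal tubule markers 5 passed the low-count filter, with a summed level of 111 to 132 CPM in scrambled and 149 to 163 CPM in siGLUT2 libraries, and LRP2, SLC5A1, SLC22A6, SLC22A8 and SLC7A9 were at 0 in every library. Of 14 fibroblast and pericyte markers 4 passed, with sums of 16.1 to 24.0 and 23.5 to 32.8 CPM, and COL3A1, DPT, PI16, C7 and MEOX1 were at 0. Of 10 leukocyte markers 1 passed (CD68), with sums of 14.8 to 19.4 and 28.1 to 29.7 CPM, and 6 were at 0, among them PTPRC, CD3E, LYZ, MS4A1 and NKG7. Of 10 endothelial markers 1 passed (EGFL7), with sums of 26.7 to 35.2 and 18.6 to 21.6 CPM, and PECAM1, CDH5, KDR, TEK, VWF, CLDN5 and PLVAP were at 0. Of 13 markers of other nephron segments 1 passed (AQP3), with sums of 0.981 to 1.76 and 0.865 to 2.73 CPM, and 9 were at 0. Total counts overlapped between the groups, as did the sums of fibroblast and of other nephron markers. The number of genes with a count, the mitochondrial share and the other marker sums moved with the group, and their part in the results below was not tested.

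After siGLUT2, fibronectin, tenascin C, SPARC and lumican were higher, while THBS1, THBS2, TGFBI, CCDC80, TNFAIP6, EFEMP1, biglycan, syndecans 2 and 4 and the laminin chain LAMC1 were lower. Of the 39 members 34 passed the low-count filter, and 8 of these were called higher and 13 lower. Over all genes tested 28.3% were called in either direction (13.9% higher and 14.4% lower), and nothing is read from the members' share because the list was made with this comparison known. At least 2-fold changes were called for 4 members upward and 7 downward, where 8.30% of all genes tested had a called change of that size in either direction. For 24 of the 34 every siGLUT2 library lay on one side of all scrambled libraries, as for 35.1% of all genes tested. The median log2 fold change was -0.28 over the 34 members and -0.0029 over all genes tested. In bulk RNA, fewer cells of a type and less RNA per cell cannot be told apart.

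The filter asked for 1.45 CPM in at least 3 libraries. For 32 of the 34 members either group alone met it, while TNFAIP6 and EFEMP1 met it in the scrambled libraries only. The 5 members that did not pass were DCN (decorin), POSTN (periostin), EFEMP2, FBLN5 and LAMA4. DCN was counted once, in scrambled replicate 4. POSTN was counted 6 and 2 times in scrambled replicates 1 and 2 and 0 times elsewhere. EFEMP2 was counted 18 and 8 times in scrambled replicates 1 and 2 and 4 times in siGLUT2 replicate 3. FBLN5 was counted 7 times in scrambled replicate 2, 1 time in scrambled replicate 3 and 12 times in siGLUT2 replicate 3, and LAMA4 8, 7 and 8 times in scrambled replicates 2 to 4 and 2 times in siGLUT2 replicate 2. With so few counts these 5 genes did not pass the filter, and their differences were not tested in the fit over all genes. A count of 0 allows up to 3 counts, or 0.359 to 0.528 CPM over the 7 libraries. Such floors cover counting error only.

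**Figure D1:**
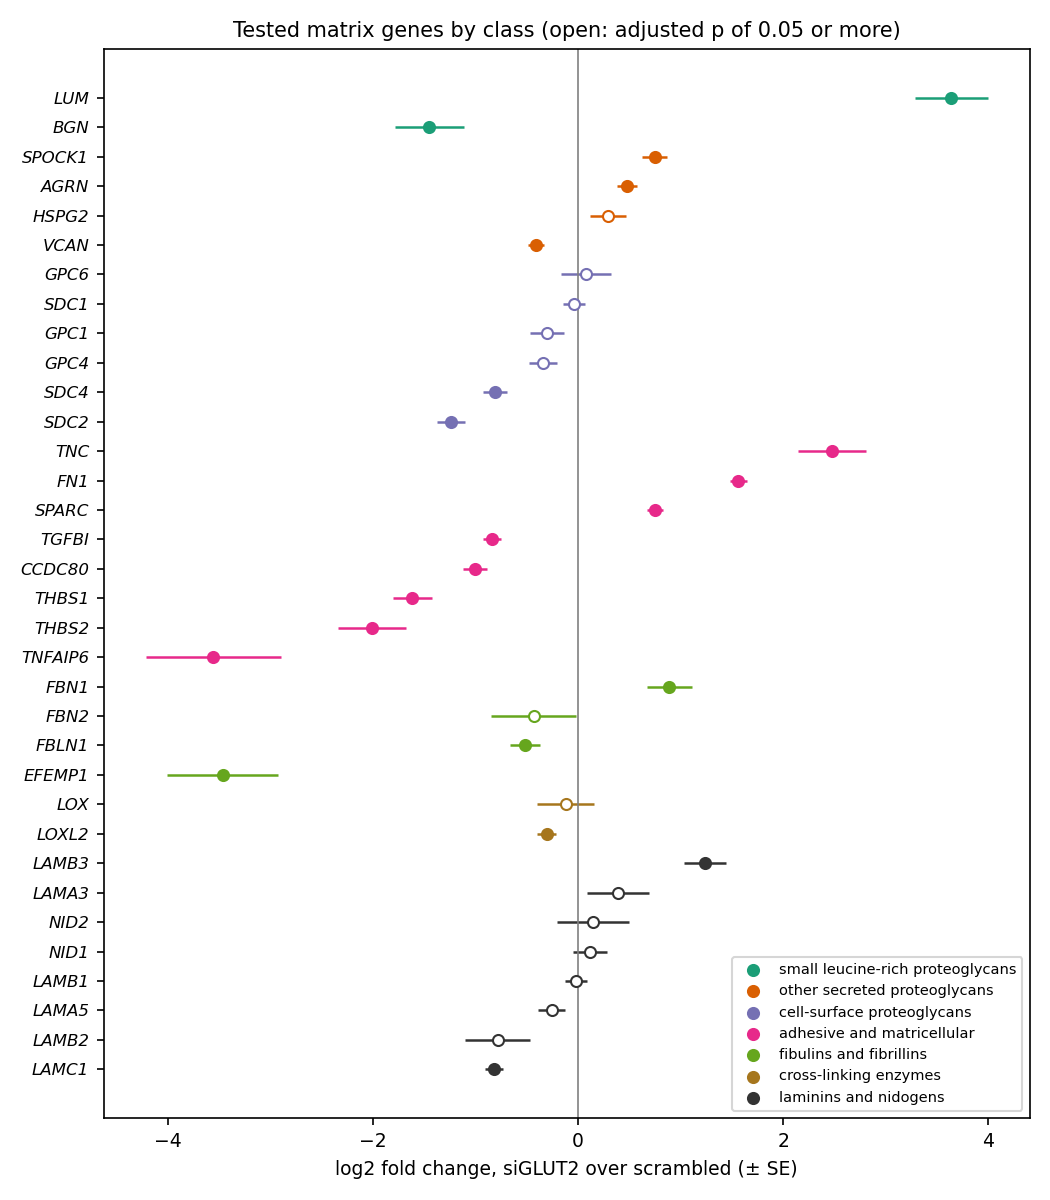
Log2 fold change of siGLUT2 over scrambled (x axis, bars ± SE) for the 34 tested members (y axis), coloured by class, with 4 scrambled and 3 siGLUT2 libraries. Filled points have an adjusted p below 0.05: LUM, TNC, FN1 and LAMB3 lie above a log2 fold change of 1, and TNFAIP6 and EFEMP1 lie below -3.

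All 8 tested adhesive and matricellular glycoproteins were called, 3 higher and 5 lower, and none overlapped between the groups. Over all genes tested 28.3% were called and 35.1% did not overlap. Nothing is read from the class count, because the list was made with this comparison known. The sequences around the transcription start are shown first for the 5 members of this class that hold the largest fold changes among the 32 members with an entry in the RefSeq promoter table (GRCh38.p14). AGRN, DCN, EFEMP1, LOXL2, LUM, SDC2 and SPOCK1 had no entry. Each sequence covers 250 bases before to 50 bases after the annotated start, 5′ to 3′ on the gene's strand. Capitals mark matches on either strand to 6 motifs: the TATA box (TATAAA), the CCAAT box (CCAAT), the GC box (GGGCGG), the AP-1 site (TGANTCA), the cyclic AMP response element (TGACGTCA) and the TEAD site (CATTCC). Neighbouring GC boxes overlap in the FN1 sequence.
FN1, chr2:215436019-215436318, minus strand: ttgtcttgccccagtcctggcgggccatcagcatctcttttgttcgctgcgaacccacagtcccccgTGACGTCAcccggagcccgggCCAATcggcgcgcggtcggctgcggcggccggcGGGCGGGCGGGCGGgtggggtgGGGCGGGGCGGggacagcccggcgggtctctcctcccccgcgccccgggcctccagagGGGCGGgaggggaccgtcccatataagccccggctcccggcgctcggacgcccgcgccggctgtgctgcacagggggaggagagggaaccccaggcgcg
TNC, chr9:115118108-115118407, minus strand: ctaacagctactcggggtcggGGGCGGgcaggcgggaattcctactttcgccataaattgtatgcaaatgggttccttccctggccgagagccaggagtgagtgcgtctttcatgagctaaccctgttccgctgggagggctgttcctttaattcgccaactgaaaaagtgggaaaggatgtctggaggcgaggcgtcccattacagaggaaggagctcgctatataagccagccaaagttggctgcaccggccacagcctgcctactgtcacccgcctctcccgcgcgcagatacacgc
TNFAIP6, chr2:151357342-151357641, plus strand: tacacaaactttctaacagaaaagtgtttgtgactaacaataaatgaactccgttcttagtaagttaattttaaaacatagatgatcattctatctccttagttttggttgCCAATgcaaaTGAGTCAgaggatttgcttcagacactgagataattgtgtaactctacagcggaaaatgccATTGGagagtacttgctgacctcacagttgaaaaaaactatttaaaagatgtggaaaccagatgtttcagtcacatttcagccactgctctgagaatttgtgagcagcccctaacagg
THBS1, chr15:39580829-39581128, plus strand: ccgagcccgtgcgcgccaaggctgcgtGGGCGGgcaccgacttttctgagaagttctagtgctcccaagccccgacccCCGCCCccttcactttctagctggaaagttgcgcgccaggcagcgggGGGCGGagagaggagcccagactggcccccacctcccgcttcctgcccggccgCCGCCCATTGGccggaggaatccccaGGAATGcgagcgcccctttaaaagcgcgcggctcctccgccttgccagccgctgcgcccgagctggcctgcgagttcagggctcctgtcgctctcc
THBS2, chr6:169253797-169254096, minus strand: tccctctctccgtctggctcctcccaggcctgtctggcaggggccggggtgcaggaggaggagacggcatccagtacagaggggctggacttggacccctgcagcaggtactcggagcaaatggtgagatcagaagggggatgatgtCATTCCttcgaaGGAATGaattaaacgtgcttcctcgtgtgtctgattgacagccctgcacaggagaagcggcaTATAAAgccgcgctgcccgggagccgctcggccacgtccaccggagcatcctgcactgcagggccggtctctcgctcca

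The FN1 sequence, of a gene that rose, held the cyclic AMP response element, a CCAAT box and several GC boxes, and TNC, which also rose, held a GC box alone of these motifs. The TNFAIP6 sequence, of a gene that fell, held an AP-1 site and CCAAT boxes. THBS1, which fell, held GC boxes, a CCAAT box and a TEAD site, and THBS2, which also fell, held TEAD sites and a TATA box. Of the 32 members with an entry (the first where a gene had several), 24 (75.0%) held a GC box, against 45.0% of all 35116 promoters. A CCAAT box stood in 8 (25.0%, all promoters 34.6%), a TEAD site in 4 (THBS1 and THBS2, which fell, and SPARC and FBN1, which rose; 12.5%, all 14.0%), a TATA box in 3 (9.38%, all 11.5%), an AP-1 site in 3 (9.38%, all 7.71%) and the cyclic AMP response element in FN1 alone (3.12%, all 1.85%). The 35116 promoters are all entries, with several for some genes and no limit to tested genes, so these shares come from unlike sets. A match describes letters in this window and no binding was measured.

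Fibronectin (FN1, ENSG00000115414, GRCh38 chromosome 2, 215360440 to 215436172, minus strand, protein coding), the fibril-forming glycoprotein that links integrins to collagen and heparan sulfate, was at 364, 365, 337 and 415 CPM in scrambled replicates 1 to 4 and 1149, 1077 and 1051 CPM in siGLUT2 replicates 2 to 4. Each siGLUT2 library was above each scrambled library, and the levels within a group lay close together, at 370.2 ± 32.8 CPM (SD, n = 4) in scrambled and 1092 ± 50.8 CPM (SD, n = 3) in siGLUT2 libraries. The change was 2.95-fold (log2 1.56 ± 0.08, adjusted p = 9.45e-12). Tenascin C (TNC), a counter-adhesive glycoprotein of wounds and fibrotic tissue, was at 2.38, 2.28, 4.55 and 4.59 CPM in scrambled and 16.9, 21.8 and 18.6 CPM in siGLUT2 libraries. The groups did not overlap, at a 5.56-fold difference (log2 2.47 ± 0.33, adjusted p = 7.52e-06). SPARC, a collagen-binding matricellular protein, was at 386, 395, 418 and 429 CPM in scrambled and 667, 707 and 683 CPM in siGLUT2 libraries. It rose by 1.68-fold (log2 0.75 ± 0.08, adjusted p = 1.9e-07), with no overlap.

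THBS1 and THBS2 are trimeric thrombospondins, matricellular proteins of which THBS1 can activate latent TGF-beta. THBS1 was at 63.6, 44.01, 62.1 and 56.1 CPM in scrambled and 15.01, 22.5 and 17.5 CPM in siGLUT2 libraries. All siGLUT2 libraries lay below all scrambled libraries, 3.07-fold lower by the fit (log2 -1.62 ± 0.19, adjusted p = 1.3e-06). Its paralogue THBS2 was at 13.2, 14.03, 23.9 and 16.1 CPM in scrambled and 3.41, 3.89 and 5.16 CPM in siGLUT2 libraries, with the highest level in scrambled replicate 3 and no overlap (log2 -2.01 ± 0.33, 4.03-fold lower, adjusted p = 7.63e-05). THBS3, a thrombospondin of the related list, was not called (log2 -0.25 ± 0.19, adjusted p = 0.368).

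TGFBI, a collagen- and integrin-binding protein named for its induction by TGF-beta, was at 516, 539, 581 and 596 CPM in scrambled and 347, 303 and 287 CPM in siGLUT2 libraries and fell 1.79-fold (log2 -0.84 ± 0.09, adjusted p = 2.91e-07). CCDC80, a secreted matrix-binding protein, was at 214, 234, 291 and 284 CPM in scrambled and 147, 116 and 119.6 CPM in siGLUT2 libraries. It was 2.01-fold lower without overlap (log2 -1.005 ± 0.12, adjusted p = 1.27e-06). TNFAIP6 (ENSG00000123610, GRCh38 chromosome 2, 151357592 to 151380048, plus strand, protein coding), a hyaluronan-binding protein induced in inflammation, had 43, 43, 109 and 55 counts with scrambled siRNA and 0, 5 and 9 counts with siGLUT2. Its levels were 6.03, 5.16, 13.8 and 9.70 CPM in scrambled and 0, 0.721 and 1.41 CPM in siGLUT2 libraries. The groups were apart, but the size of the fall is loosely set: log2 -3.55 ± 0.66 (adjusted p = 0.000279), and -4.43 without siGLUT2 replicate 4.

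**Figure D2:**
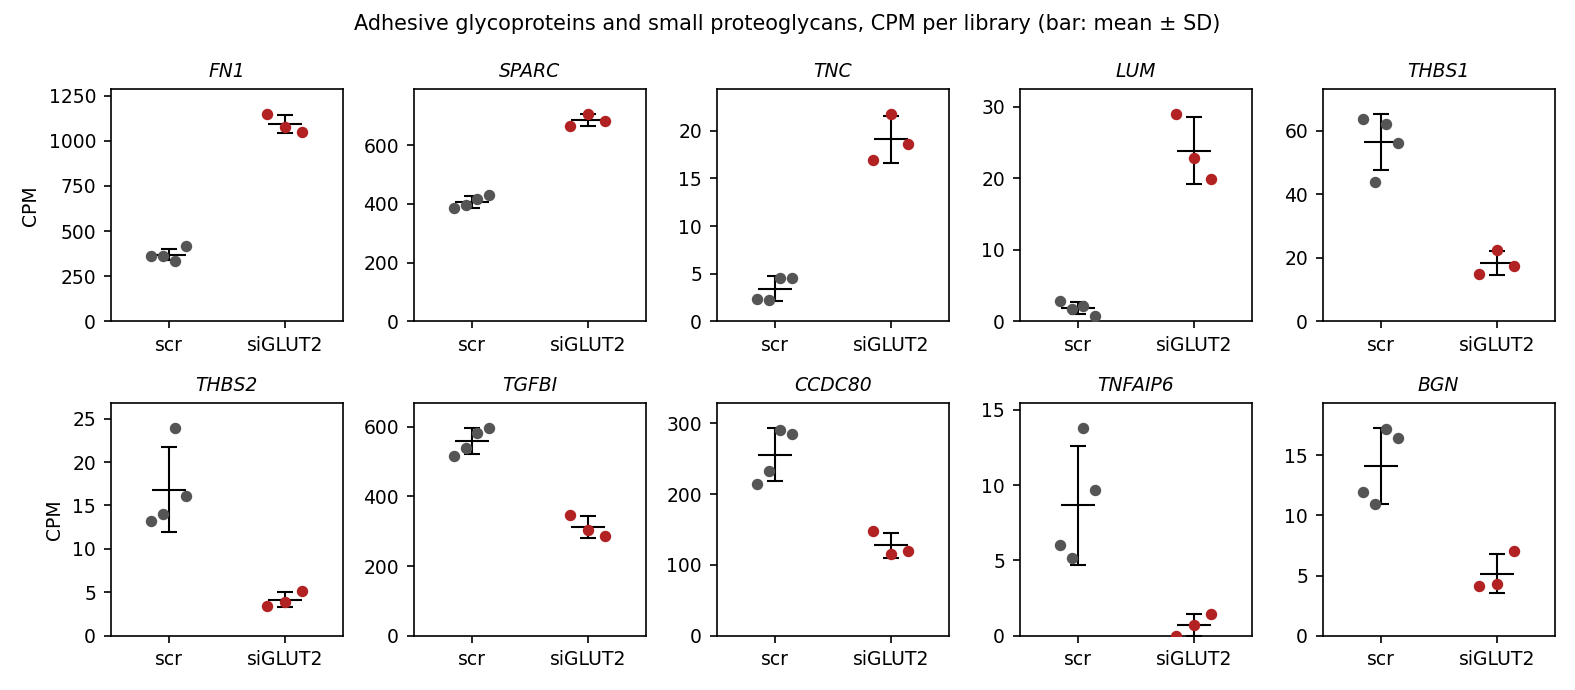
CPM per library (y axis, from 0) in the 4 scrambled (scr, grey) and 3 siGLUT2 (red) libraries for 8 adhesive and matricellular genes and for LUM and BGN; bars are mean ± SD. In each panel the groups are apart: FN1 sits between 337 and 415 CPM in scrambled and between 1051 and 1149 CPM in siGLUT2 libraries.

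The small leucine-rich proteoglycans, which bind fibrillar collagen and regulate its assembly, went in opposite directions. Lumican (LUM, ENSG00000139329, GRCh38 chromosome 12, 91102629 to 91111831, minus strand, protein coding) had 20, 15, 17 and 4 counts with scrambled siRNA and 170, 158 and 127 counts with siGLUT2, or 2.80, 1.80, 2.15 and 0.706 CPM in scrambled and 28.99, 22.8 and 19.9 CPM in siGLUT2 libraries, on average 1.86 ± 0.877 CPM (SD, n = 4) in scrambled and 23.9 ± 4.67 CPM (SD, n = 3) in siGLUT2 libraries. Every siGLUT2 library stood far above the scrambled libraries, with a 12.4-fold rise (log2 3.64 ± 0.35, adjusted p = 9.11e-08). DCN lies 28.7 kb from LUM with no protein-coding gene between them, and held 1 count in all, while KERA, 44.6 kb away on the other side, was at 0 in every library. Biglycan (BGN) was at 11.9, 10.9, 17.2 and 16.4 CPM in scrambled and 4.09, 4.32 and 7.04 CPM in siGLUT2 libraries. It was 2.73-fold lower with no overlap (log2 -1.45 ± 0.33, adjusted p = 0.00214). BGN shares 578 bases with HAUS7 on the opposite strand, which was counted 1129 times over the scrambled and 482 times over the siGLUT2 libraries, and with an unknown strand setting reads of that stretch cannot be told apart.

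Among the other secreted proteoglycans 2 of 4 were called higher and 1 lower (75.0% called, against 28.3% of all genes tested). SPOCK1 (testican), a secreted proteoglycan of the SPARC family, was at 58.7, 57.3, 65.6 and 76.9 CPM in scrambled and 111, 109 and 105 CPM in siGLUT2 libraries and rose by 1.68-fold (log2 0.75 ± 0.13, adjusted p = 9.95e-05). Agrin (AGRN), a heparan sulfate proteoglycan of basement membranes, was at 289, 315, 312 and 310.2 CPM in scrambled and 374, 394 and 512 CPM in siGLUT2 libraries. Its groups did not overlap, and siGLUT2 replicate 4 was the highest (log2 0.48 ± 0.10, 1.39-fold, adjusted p = 0.000713). Versican (VCAN), the large hyaluronan-binding chondroitin sulfate proteoglycan, was at 522, 522, 523 and 556 CPM in scrambled and 398, 382 and 420.0 CPM in siGLUT2 libraries. Scrambled replicate 4 stood above the other three, and every siGLUT2 library lay below them all (1.33-fold lower, log2 -0.41 ± 0.08, adjusted p = 0.000417). Perlecan (HSPG2), the other basement membrane heparan sulfate proteoglycan of this class, was at 54.8, 40.9, 40.3 and 44.1 CPM in scrambled and 49.1, 43.8 and 72.9 CPM in siGLUT2 libraries. Its groups overlapped and it was not called (log2 0.30 ± 0.18, adjusted p = 0.23).

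Of the 6 cell-surface heparan sulfate proteoglycans 2 were lower and 0 higher. That is 33.3% called, near the 28.3% of all genes tested. Syndecan 2 (SDC2) was at 108, 111, 152 and 129 CPM in scrambled and 54.6, 49.9 and 54.7 CPM in siGLUT2 libraries and fell 2.36-fold (log2 -1.24 ± 0.13, adjusted p = 3.91e-07). Syndecan 4 (SDC4), a focal adhesion co-receptor of integrins for fibronectin, was at 263, 234, 237 and 242 CPM in scrambled and 107, 152 and 159 CPM in siGLUT2 libraries. The 3 siGLUT2 values lay below all scrambled values (log2 -0.81 ± 0.12, 1.75-fold lower, adjusted p = 1.56e-05). Syndecan 1 (SDC1), the main epithelial syndecan, was at 139.6, 156, 151 and 138 CPM in scrambled and 136, 159 and 131 CPM in siGLUT2 libraries, and its groups overlapped (log2 -0.04 ± 0.10, adjusted p = 0.816).

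The glypicans of the member list, which are held in the membrane by a lipid anchor, were not called. GPC2, a glypican of the related list, was called higher (log2 0.87 ± 0.21, adjusted p = 0.00345). GPC4 was at 77.2, 71.5, 84.1 and 86.2 CPM in scrambled and 70.3, 64.1 and 54.4 CPM in siGLUT2 libraries, with no overlap, and missed the threshold (log2 -0.34 ± 0.13, adjusted p = 0.0588, from 0.0203 without siGLUT2 replicate 2 to 0.181 without siGLUT2 replicate 4). GPC1 was at 75.4, 62.5, 60.6 and 52.2 CPM in scrambled and 42.6, 46.5 and 63.5 CPM in siGLUT2 libraries, with overlap (log2 -0.30 ± 0.16, adjusted p = 0.181, from 0.0248 without siGLUT2 replicate 4 to 0.468 without scrambled replicate 1). GPC6 was at 16.7, 14.5, 12.4 and 17.3 CPM in scrambled and 16.5, 14.3 and 17.2 CPM in siGLUT2 libraries (log2 0.07 ± 0.24, adjusted p = 0.855).

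**Figure D3:**
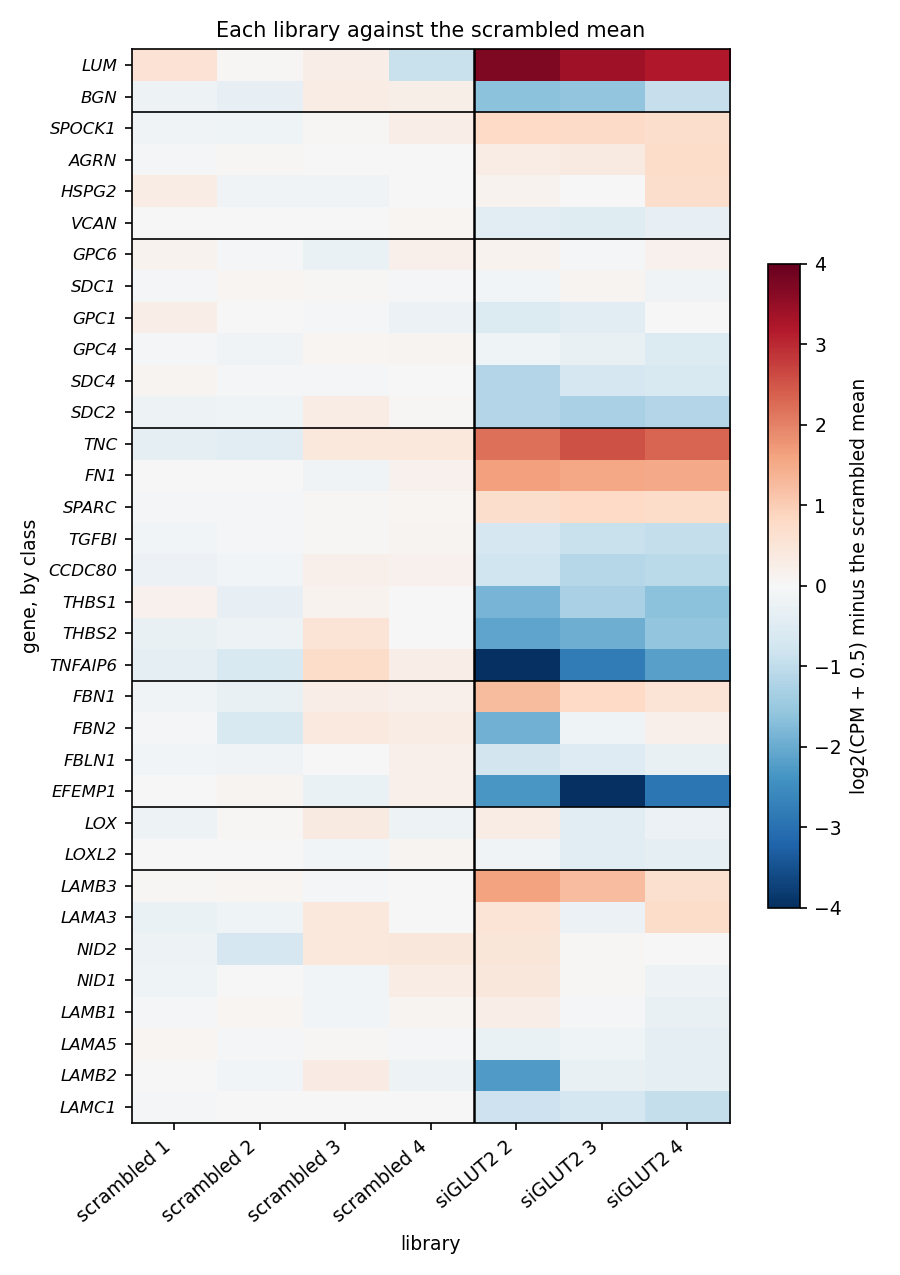
Difference of each library from the mean of the 4 scrambled libraries, as log2(CPM + 0.5) with red above and blue below that mean, for the 34 tested members (rows, by class) in the 7 libraries (columns). Columns of the siGLUT2 libraries look alike for LUM, TNC, FN1 and SDC2, whereas LAMB2 and FBN2 are low mainly in siGLUT2 replicate 2.

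Fibulins and fibrillins form and decorate the microfibrils on which elastic fibres are built. Of 4 tested, 1 was higher and 2 were lower (75.0% called, against 28.3% of all genes tested). EFEMP1, a fibulin, had 105, 132, 96 and 96 counts with scrambled siRNA and 15, 0 and 10 counts with siGLUT2, or 14.7, 15.8, 12.1 and 16.9 CPM in scrambled and 2.56, 0 and 1.56 CPM in siGLUT2 libraries. All siGLUT2 values lay far below the scrambled ones (log2 -3.46 ± 0.54, adjusted p = 4.08e-05), and the fold depended on single libraries: 11.03-fold lower with all of them, 19.2-fold without siGLUT2 replicate 2 and 7.21-fold without siGLUT2 replicate 3. With limma-voom it was 23.7-fold. FBLN1, a fibulin that binds fibronectin and basement membrane proteins, was at 64.5, 63.4, 70.96 and 81.1 CPM in scrambled and 41.6, 48.9 and 56.3 CPM in siGLUT2 libraries (log2 -0.51 ± 0.15, adjusted p = 0.0115, and 0.0636 without scrambled replicate 4). Fibrillin 1 (FBN1), the main microfibril protein, was at 16.3, 14.4, 21.6 and 20.6 CPM in scrambled and 43.7, 31.4 and 26.3 CPM in siGLUT2 libraries and rose by 1.85-fold (log2 0.89 ± 0.22, adjusted p = 0.00367). Fibrillin 2 (FBN2) was at 9.67, 6.60, 13.8 and 12.9 CPM in scrambled and 2.39, 9.22 and 12.04 CPM in siGLUT2 libraries. Its groups overlapped, and siGLUT2 replicate 2 was the lowest (log2 -0.43 ± 0.41, adjusted p = 0.475).

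The lysyl oxidases cross-link collagen and elastin. LOXL2 was at 464, 469, 435 and 506 CPM in scrambled and 427, 352 and 357 CPM in siGLUT2 libraries, without overlap (log2 -0.31 ± 0.09, 1.24-fold lower, adjusted p = 0.0119). That call did not hold without scrambled replicate 4 (adjusted p = 0.0568) or siGLUT2 replicate 3 (adjusted p = 0.0681), and LOXL2 overlaps ENTPD4 on the same strand. LOX was at 12.2, 14.6, 18.1 and 12.3 CPM in scrambled and 17.4, 10.2 and 12.04 CPM in siGLUT2 libraries and overlapped between groups (log2 -0.12 ± 0.27, adjusted p = 0.787).

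Among laminins and nidogens 1 of 8 tested members was higher and 1 lower, and they are different subunits. That is 25.0% called, near the 28.3% of all genes tested. LAMB3 (ENSG00000196878, GRCh38 chromosome 1, 209614870 to 209652466, minus strand, protein coding), a beta chain of epithelial laminin that pairs with LAMA3, was at 19.3, 19.9, 17.7 and 18.5 CPM in scrambled replicates 1 to 4 and 58.7, 45.2 and 29.9 CPM in siGLUT2 replicates 2 to 4. All siGLUT2 libraries were above the scrambled ones but spread among themselves, with siGLUT2 replicate 2 the highest (log2 1.24 ± 0.21, 2.36-fold, adjusted p = 9.34e-05). Its alpha partner LAMA3 was at 8.69, 9.23, 14.3 and 10.8 CPM in scrambled and 15.5, 8.93 and 17.98 CPM in siGLUT2 libraries and was not called (log2 0.39 ± 0.30, adjusted p = 0.36).

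LAMC1 (ENSG00000135862, GRCh38 chromosome 1, 183023460 to 183145592, plus strand, protein coding), the gamma chain shared by most basement membrane laminins, was at 343, 364, 359 and 365 CPM in scrambled and 203, 221 and 185 CPM in siGLUT2 libraries. It fell 1.76-fold without overlap (log2 -0.82 ± 0.09, adjusted p = 3.85e-07). LAMC3, a gamma chain of the related list, was at 74.8, 79.4, 71.6 and 71.96 CPM in scrambled and 20.98, 34.4 and 63.3 CPM in siGLUT2 libraries, with a wide spread among the siGLUT2 libraries (log2 -0.91 ± 0.23, adjusted p = 0.00532, 0.0559 without siGLUT2 replicate 3 and 0.0589 by DESeq2).

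Of the chains that pair with LAMC1, LAMB1 was at 392, 427, 375 and 437 CPM in scrambled and 488, 385 and 334 CPM in siGLUT2 libraries, with the siGLUT2 values on both sides of the scrambled ones (log2 -0.02 ± 0.10, adjusted p = 0.919). LAMB2 was at 24.9, 23.3, 31.4 and 21.5 CPM in scrambled and 4.78, 20.3 and 18.8 CPM in siGLUT2 libraries. It did not overlap but was not called (log2 -0.78 ± 0.32, adjusted p = 0.0714): siGLUT2 replicate 2 stood apart at 28 counts, and without it the log2 fold change was -0.37 (adjusted p = 0.232). The adjusted p was 0.0392 without siGLUT2 replicate 3, 0.0487 without siGLUT2 replicate 4 and 0.0233 by limma-voom. LAMA5, the alpha chain of the main laminin of mature tubular basement membrane, was at 74.3, 69.2, 73.99 and 67.2 CPM in scrambled and 59.7, 63.7 and 55.4 CPM in siGLUT2 libraries (log2 -0.26 ± 0.13, adjusted p = 0.148), without overlap. The nidogens bridge laminin to type IV collagen, and both overlapped between groups: NID1 had a log2 fold change of 0.12 ± 0.16 (adjusted p = 0.65) and NID2 of 0.14 ± 0.35 (adjusted p = 0.806).

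**Figure D4:**
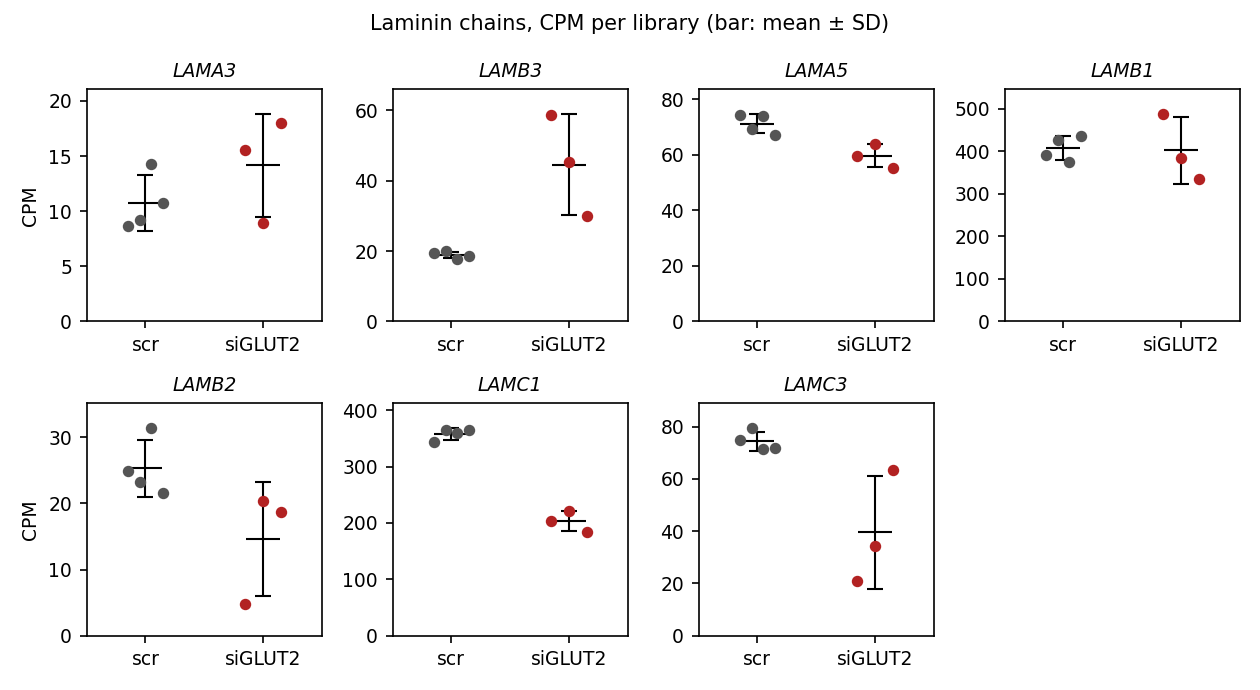
CPM per library (y axis, from 0) of 7 laminin chains in the 4 scrambled (scr, grey) and 3 siGLUT2 (red) libraries; bars are mean ± SD. LAMB3 is above and LAMC1 is below the scrambled values in each siGLUT2 library, while LAMA3 and LAMB1 overlap.

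A list of 166 related genes, made of the other members of the same families and the enzymes of glycosaminoglycan chains, was drawn up from textbook families. Of these, 93 were tested, and 20 were higher and 11 lower, or 33.3% called against 28.3% of all genes tested, with a median log2 fold change of 0.05. Among 6 tested cell-surface relatives 3 rose and 1 fell (66.7% called). CD44, the main hyaluronan receptor, was at 97.4, 96.5, 122 and 113 CPM in scrambled and 223, 238 and 232 CPM in siGLUT2 libraries and rose by 2.15-fold (log2 1.11 ± 0.10, adjusted p = 5.49e-08). TGFBR3 (betaglycan) changed by 1.70 ± 0.37 and GPC2 by 0.87 ± 0.21. NRP1 changed by -0.47 ± 0.15 (adjusted p = 0.0256), a call lost without scrambled replicate 1 (adjusted p = 0.0645), 3 (0.0798) or 4 (0.0528) or siGLUT2 replicate 3 (0.0557).

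Among 18 tested adhesive and matricellular relatives 6 rose and 2 fell, or 44.4% called against 28.3% of all genes tested. CCN1, an integrin-binding matricellular protein, was at 588, 486, 659 and 623 CPM in scrambled and 1150.3, 936 and 965 CPM in siGLUT2 libraries (log2 0.79 ± 0.10, adjusted p = 2.01e-06). CCN3, of the same family, changed by 1.34 ± 0.25, CTHRC1 by 1.04 ± 0.17 and matrilin 2 (MATN2) by -1.14 ± 0.23. The other tested CCN genes of the list, CCN2 (-0.12 ± 0.15, adjusted p = 0.61) and CCN5 (-0.85 ± 0.48, adjusted p = 0.206), were not called. Of 6 tested microfibril relatives 1 rose and 1 fell (33.3% called). LTBP2, a latent TGF-beta binding protein, rose (0.72 ± 0.14). FBLN7 changed by -1.85 ± 0.64 (adjusted p = 0.0323), a call lost without scrambled replicate 1 (adjusted p = 0.0938), 2 (0.0612), 3 (0.0917) or 4 (0.0521) or siGLUT2 replicate 4 (0.0677) and by limma-voom (0.0579). It passed the low-count filter on the scrambled libraries alone, where it was higher, so its adjusted p is no separate support. Of 10 further cross-linking and collagen-processing genes 2 rose and 2 fell. The transglutaminase TGM2 changed by -1.01 ± 0.13 and the procollagen C-proteinase enhancer PCOLCE by -1.31 ± 0.28 (-1.91 without siGLUT2 replicate 4), while the lysyl hydroxylase PLOD1 changed by 0.63 ± 0.14 and PCOLCE2 by 0.83 ± 0.24.

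Among basement membrane relatives the laminin receptor dystroglycan rose (DAG1, 0.69 ± 0.15) and LAMC3 fell. Among the 2 tested of 12 other small leucine-rich proteoglycans PODNL1 changed by -3.07 ± 1.04 (adjusted p = 0.0307), at 0 to 4 counts per siGLUT2 library, and it was not called without scrambled replicate 1 (-2.41, adjusted p = 0.164), scrambled replicate 4 (0.0526), siGLUT2 replicate 3 (0.0815) or siGLUT2 replicate 4 (0.0729), nor by limma-voom (0.115). Without siGLUT2 replicate 2 its value was -4.08. PODNL1 and NYX passed the low-count filter on the scrambled libraries alone, the group where they were higher, so their adjusted p is no separate support. NYX was not called (adjusted p = 0.268), nor were the link proteins HAPLN3 (adjusted p = 0.152) and HAPLN4 (adjusted p = 0.575).

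Of 38 tested glycosaminoglycan enzymes 6 rose and 3 fell, 23.7% called against 28.3% of all genes tested. CHST11, a chondroitin sulfotransferase, was at 15.3, 18.6, 21.8 and 20.6 CPM in scrambled and 53.9, 56.5 and 59.6 CPM in siGLUT2 libraries and rose by 2.97-fold (log2 1.57 ± 0.17, adjusted p = 5.14e-07). The hyaluronan synthase HAS3 was at 21.9, 13.6, 20.7 and 16.8 CPM in scrambled and 53.04, 49.4 and 46.9 CPM in siGLUT2 libraries and rose by 2.73-fold (log2 1.45 ± 0.19, adjusted p = 4.78e-06). UXS1, which makes the xylose donor that starts the chains, changed by 0.78 ± 0.09, and PAPSS2, which makes the sulfate donor, by -0.93 ± 0.12. Of the genes named here that make or bind hyaluronan, HAS3 and CD44 were higher, TNFAIP6 and VCAN were lower, and HAPLN3 and HAPLN4 were not called.

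**Figure D5:**
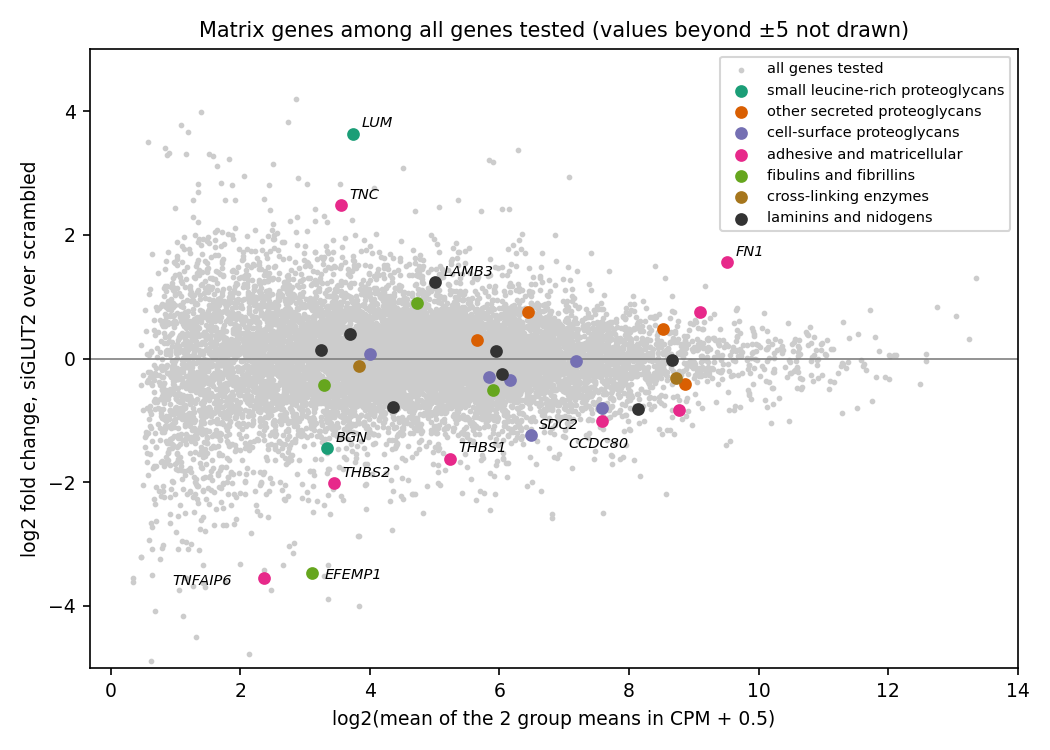
Log2 fold change of siGLUT2 over scrambled (y axis) against log2(mean of the 2 group means in CPM + 0.5) (x axis) for all 12404 genes tested (grey) and the 34 tested members (coloured by class, labelled where called at 2-fold or more). FN1 lies farthest right among the members, LUM is the highest and TNFAIP6 the lowest of them, and 15 genes beyond a log2 fold change of 5 in size are not drawn.

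The words GACCTTA and ACCTTAA were picked by an earlier scan of these same fold changes, so their presence is no separate support. Either stood in the longest annotated 3' UTR of 10 of the 39 members (25.6%) and of 16.4% of the 11654 tested genes with an annotated 3' UTR. The 10 were SDC2, THBS2, CCDC80, EFEMP1 and LAMC1, which fell, SPOCK1 and FBN1, which rose, GPC4 and GPC6, which were not called, and POSTN, which was not tested. Of the 1914 tested genes with a word, 204 were called higher and 398 lower, so a lean downward was not particular to the members. THBS1, TNFAIP6, TGFBI, BGN and SDC4, which fell, held neither word, nor did FN1, TNC, SPARC, LUM and LAMB3, which rose.

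Of the members, 17 overlap another gene of the table by annotation. Besides BGN and LOXL2, THBS2 overlaps an antisense gene counted 86 times over the scrambled and 28 times over the siGLUT2 libraries. THBS1 overlaps FSIP1 (23 and 15 counts), and the genes that overlap TNC, SPARC, VCAN and LAMC1 were at 0. LAMB1 overlaps DLD, LAMA5 overlaps ADRM1, LOX overlaps SRFBP1 and NID2 overlaps RTRAF, all on the opposite strand.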

How the data were processed

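The authors deposited raw counts per Ensembl gene for 7 libraries of HK-2 cells, in whole numbers; per the labels' protocols, 125 ng of total RNA went into a commercial 3' digital mRNA-seq service with single-end 100-cycle sequencing. The submitters' processing notes name STAR, HTSeq, edgeR and hg38 but no versions. Which annotation was used, whether counting was stranded and whether molecular identifiers were read is not given in the sources used here, so reads may not be independent molecules. A 3' method counts transcript ends, so CPM was not divided by length, and levels are not compared between genes.

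Groups came from the sample titles. All 33694 rows entered edgeR 4.0.16 in R 4.3.3 (filterByExpr with a minimum count of 10 and a minimum total of 15, TMM scaling, robust dispersion and quasi-likelihood fits, no covariates, Benjamini-Hochberg adjustment, threshold 0.05). The SE is the log2 fold change divided by the square root of F. Symbols and positions came from Ensembl IDs and GENCODE release 29 (GRCh38). The 3' UTR of a gene is its longest annotated one of at least 50 bases. The fit was also run on simulated counts in which few genes were changed. That run does not cover data with as many calls as these, and nothing is drawn from it.

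The members, lists and tests were chosen with earlier results of these data known. All members are named; values in every library were set for up to 6 called members per class with the smallest adjusted p (the 2 with the highest CPM where fewer than 2 were called), and related lists give up to 4 called genes with the smallest adjusted p (or the 2 with the highest CPM). Some genes of the related and marker lists are not reported here. Values in every library for further members, and the values of THBS3, CCN2 and CCN5, were added after they were seen. Alternatives were DESeq2 1.42.0, limma-voom (limma 3.58.1) without and with a quality weight per group, other scalings, other low-count filters, leaving out each library, the replicate number as a block and an adjusted p of 0.01.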

Additional observations from a re-analysis of the deposited data

Results flagged for a closer look

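VCAN stood out among the scrambled libraries: replicate 4 was at 556 CPM and the other three lay between 521.8 and 523.4 CPM, so the gap to the nearest library was 0.952 of the group's range, above the 95% critical value of Dixon's test. Chance marks about 1 in 20 such groups, and 37 were examined. The fall of VCAN was called under each of the 16 alternative fits, with log2 fold changes from -0.45 to -0.38.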

How the results depend on the processing

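Over the alternatives, the stricter threshold of 0.01 included, 8 members were called higher in each, and 11 to 15 were called lower. Of the 21 called members 19 were called under each of the 16 alternative fits; the exceptions, FBLN1 and LOXL2, are given with their results. At an adjusted p of 0.01 the calls over all genes fell to 2264 (1097 higher, 1167 lower) from 3509 (1723 and 1786), and the related genes called lower fell to 7 from 11, since a stricter threshold calls fewer genes. Leaving out 1 library at a time reversed the sign of genes that were not called, whose log2 fold changes then ran from -0.18 to 0.095 for LAMB1, -0.055 to 0.31 for NID2, -0.37 to 0.032 for LOX, -0.0091 to 0.15 for GPC6, -0.087 to 0.25 for NID1, -0.13 to 0.011 for SDC1 and -0.016 to 1.61 for HAPLN4. LAMB1 reversed without scrambled replicate 2 (0.0043) or 4 (0.019) and without siGLUT2 replicate 3 (0.0096) or 4, NID2 also without siGLUT2 replicate 2 (-0.029), and LOX also without scrambled replicate 3 (0.016). The cause was not tested. LAMB2 was called without the low-count filter (adjusted p = 0.0087). With a quality weight per group in limma-voom LAMB2 was called (adjusted p = 0.0240), and PODNL1 (0.185), FBLN7 (0.116) and NRP1 (0.0556) were not. With a mean of at least 5 CPM asked for, PODNL1, NYX, FBLN7, HAPLN4 and SLC2A2 were not tested and have no value, nor did NYX without scrambled replicate 1, 2 or 3, SLC2A2 without scrambled replicate 1, 2 or 4 and HAPLN4 without scrambled replicate 1. The 0 counts of TNFAIP6 and EFEMP1 in 1 siGLUT2 library each limit how well the size of their falls is known.

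With the replicate number as a block, 2649 genes were called, 1242 higher and 1407 lower, among them 8 members higher and 13 lower; the related genes numbered 20 higher and 8 lower, and PODNL1 (adjusted p = 0.182), NRP1 (0.0945), FBLN7 (0.101) and SLC2A2 (0.0577) were then not called. Same-numbered libraries did not deviate together (correlations of deviations from the group means of -0.0032 to 0.0152 over 12404 genes). These values gave no sign of pairing, but with so few libraries they cannot show how the cultures were handled.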
